A study of Mus musculus with 6 samples.

Results

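Cd24a, Pdgfra, Pdgfrb, Cd34, Ly6a, Dpp4, Dlk1, Zfp423, Thy1 and Cd81 are the genes by which adipocyte progenitors and other stromal cells of fat are recognised. These 10 genes, of 52089 symbols in the deposited table, were selected by symbol, and the choice rested in part on measured values: Cd24a was selected because its difference between the groups compared here was among the largest. Its difference is therefore given as a description with no test. All 10 are in the table, and 8 of them passed the filter of a mean of at least 1 RPKM (reads per kilobase of transcript per mio mapped reads). The values come from primary brite adipocytes, the thermogenic fat cells that arise in white adipose tissue, grown from the stromal-vascular fraction of inguinal white adipose tissue of male 129SvEv mice aged 5 to 6 weeks, kept in induction medium for 2 days and then in differentiation medium with rosiglitazone for 1 day. In the Ctcflos KD group, 3 samples received 50 nM of ASO1, an LNA Gapmer against the long noncoding RNA Ctcflos, and in the NC ctrl group another 3 received 50 nM of a nontargeting LNA Gapmer. Both groups were reverse transfected and harvested 24 h later. A single targeting oligonucleotide was used, so that loss of Ctcflos and other effects of ASO1 cannot be told apart. The labels do not say whether the libraries of a group came from separate animals, and p-values measure only the spread between these libraries.

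White fat holds a stromal compartment from which adipocytes are renewed. Its progenitors carry PDGFRα, Sca-1 (encoded by Ly6a) and CD34. CD24, a small GPI-anchored glycoprotein, marks a subset of them in mouse white fat that can rebuild a fat depot. DPP4 marks interstitial progenitors, DLK1 (Pref-1) holds preadipocytes back from differentiation, and ZFP423 is a zinc finger protein that commits cells to the adipocyte lineage and restrains the thermogenic programme. Many of these genes decline as adipocytes mature, and CD24 is also made by cells outside this lineage, such as B cells, erythroid cells and many epithelia. In bulk RNA, fewer cells of a type and less RNA per cell cannot be told apart.

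The coding sequence of Cd24a is shown because it is short and has near copies, which bears on how its reads can be assigned. In Gencode vM21 (GRCm38) the gene lies on the forward strand at chr10:43578284-43584265, and the coding bases of the transcript matched to its RefSeq accession lie in exon 1 (chr10:43579254-43579322) and exon 2 (chr10:43582604-43582762). They make up 228 bases without the stop codon. The processed pseudogene Gm6212 on chromosome 14 aligns to coding bases 2 to 217 and differs at 5 of the printed bases, which are in capitals.
Cd24a: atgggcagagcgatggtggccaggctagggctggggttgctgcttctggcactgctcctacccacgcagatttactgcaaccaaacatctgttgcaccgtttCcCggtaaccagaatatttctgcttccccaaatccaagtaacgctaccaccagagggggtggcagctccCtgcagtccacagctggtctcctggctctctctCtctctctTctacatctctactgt
Gm6212 matches Cd24a at 96.8% of 218 aligned transcript bases, and a further processed pseudogene, Gm15352 on chromosome 8, matches at 92.3% of 259. Neither pseudogene was analysed here, and how reads that match several places were assigned is not given in the sources used here.

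For Pdgfra and Zfp423, the members with the lowest KD values relative to control beside the barely detected Dpp4, the 250 bases before the RefSeq start site are shown. The RefSeq table (GRCm38.p6) holds 7 such windows for 6 of the 10 genes. They were searched on both strands for 4 motifs, and matches are in capitals. The motif TATAAA is the core of the TATA box. The motif CCAAT is bound by NF-Y, the motif GGGCGG by Sp1-type factors, and the motif AGGTCA is a nuclear receptor core element. No match overlapped another motif in the printed windows. The first window, chr5:75152001-75152250 on the forward strand, is that of Pdgfra. The other, chr8:87959596-87959845 on the reverse strand, is the outer window of Zfp423, which has a further start site within the gene.
Pdgfra: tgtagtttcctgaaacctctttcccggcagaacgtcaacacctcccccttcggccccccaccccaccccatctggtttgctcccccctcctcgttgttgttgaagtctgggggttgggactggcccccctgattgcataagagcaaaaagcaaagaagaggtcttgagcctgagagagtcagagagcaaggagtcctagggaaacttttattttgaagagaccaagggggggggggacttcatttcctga
Zfp423: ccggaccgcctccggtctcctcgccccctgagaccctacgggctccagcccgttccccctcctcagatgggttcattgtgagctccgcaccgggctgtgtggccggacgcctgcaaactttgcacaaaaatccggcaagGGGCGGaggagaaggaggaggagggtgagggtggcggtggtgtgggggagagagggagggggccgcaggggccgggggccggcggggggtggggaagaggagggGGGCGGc
The Pdgfra window held none of the 4 motifs, and 54.4% of its bases were G or C, near the median of 52.4% over all 32851 windows. The outer Zfp423 window held GGGCGG at 2 places, as did 32.7% of all windows at 1 place or more, and 71.6% of its bases were G or C. The inner Zfp423 window, chr8:87804440-87804689, is not printed. It held GGGCGG and AGGTCA at 1 place each, and 64.8% of its bases were G or C. TATAAA occurred in 12.4% of all windows, CCAAT in 33.9% and AGGTCA in 14.02%. A match is a description of letters and shows no binding.

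The depth recovered from the values was 60.8 to 75.5 mio reads in Ctcflos KD and 62.9 to 79.2 mio in controls. The targeted Ctcflos RNA (1300015D01Rik) was listed at 0.0969, 0.0705 and 0.210 RPKM in KD 1, 2 and 3 and at 0.748, 0.751 and 0.840 RPKM in NC 1, 2 and 3. The groups did not overlap, and the KD mean was 16.1% of the control mean (fit without a filter, log2 fold change -0.66 ± 0.06 SE, limma adjusted p = 0.0449). Over the 11701 genes tested, 24.0% were called at an adjusted p under 0.05 in either direction, 11.5% higher and 12.4% lower in KD, and the median log2 fold change was 0.03. The groups did not overlap for 44.8% of the genes. Counts of markers called are read against these shares.

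In controls the 10 markers spanned several orders of magnitude on the RPKM scale, which is per length of transcript. Ly6a led at 346 ± 90.8 RPKM (mean ± SD, n = 3), followed by Pdgfra at 21.8 ± 2.57, Cd81 at 21.7 ± 1.95, Pdgfrb at 9.95 ± 0.804 and Thy1 at 6.82 ± 0.816. Zfp423 (1.51 ± 0.240), Cd34 (1.37 ± 0.216), Cd24a (0.341 ± 0.203), Dlk1 (0.199 ± 0.0682) and Dpp4 (0.0138 ± 0.00598) made up the lower part. The control libraries of Pdgfra and Cd81 overlapped, as did those of Zfp423 and Cd34 and those of Cd24a and Dlk1, while all other neighbours in the order were separate. In Ctcflos KD, Cd24a stood in rank 6 in place of 8, above Cd34, Zfp423 and Dlk1, and Cd81 (21.9 ± 4.19 RPKM) lay above Pdgfra (13.1 ± 0.922) without overlap. These gene values average full-length and partial accessions. From RefSeq accessions alone, Cd81 came before Pdgfra and Thy1 before Pdgfrb in controls, each pair with overlapping libraries.

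**Figure D1:**
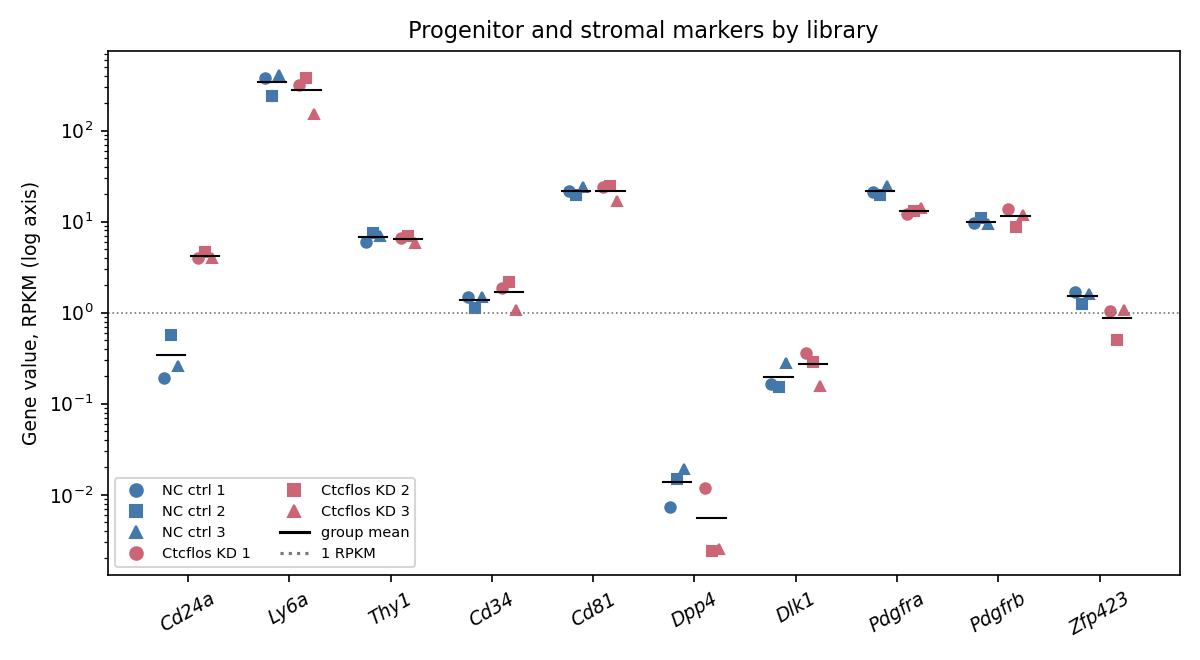
Gene values of the 10 markers in RPKM on a log axis, 1 point per library, with circles, squares and triangles for libraries 1, 2 and 3 of each group, black bars for group means and a dotted line at 1 RPKM. Cd24a is apart between the groups, from 3.96 to 4.61 RPKM in KD against 0.194 to 0.574 in controls, Pdgfra and Zfp423 are lower in every KD library, and the others overlap.

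Cd24a was the one member that was far higher after KD. Its values were 3.96, 4.61 and 3.996 RPKM in KD 1, 2 and 3 and 0.194, 0.574 and 0.257 RPKM in NC 1, 2 and 3. The lowest KD library was several times the highest control library. The means were 4.19 ± 0.363 RPKM in KD and 0.341 ± 0.203 RPKM in controls (SD, n = 3 each), a ratio of 12.3, and by log2 fold change (1.96 on log2(RPKM + 1)) the gene was in rank 6 of 11701. It passed the filter on low values through its KD libraries alone. Adding 1 before the log understates the change of so low a gene: with 0.1 added the log2 fold change was 3.37. Without NC 2, the high control library, the control mean was 0.225 RPKM and the ratio 18.6.

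On its RefSeq transcript of 1816 bases, 546, 637 and 453 reads were counted in KD 1, 2 and 3 and 29, 84 and 28 reads in NC 1, 2 and 3. The 4 accessions of Cd24a are not independent, since overlapping accessions share reads, and their ratios of KD to control ranged from 11.4 to 13.1. In controls, NC 2 was the high library by reads as well as by RPKM.

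Cells outside the lineage that also make CD24 were checked by their own markers. The 4 B cell markers reported here (Cd79a, Cd79b, Ms4a1, Pax5) stayed below 1 RPKM in every library and summed to 0.0865 to 0.348 RPKM in KD and 0.0396 to 0.133 in controls. The 5 erythroid markers were below 1 RPKM in every library too, with sums of 0.295 to 0.520 in KD and 0.439 to 0.836 in controls, and Hbb-bs and Hba-a1 were listed at 0 throughout. All 6 epithelial markers lay below 1 RPKM, with sums of 0.101 to 0.265 in KD and 0.0717 to 0.523 in controls, and Krt5 was listed at 0. Among 5 mesothelial markers, Msln, Upk3b and Wt1 were below 1 RPKM. Of the list, 2 were tested and 1 was called, against 24.0% of all genes. This was Lrrn4, lower at 3.11, 3.39 and 3.88 RPKM in KD against 5.48, 4.35 and 5.02 in controls (log2 fold change -0.42, limma adjusted p = 0.0339). Krt19, a keratin of simple epithelia and mesothelium, was at 27.7, 30.1 and 8.30 RPKM in KD 1, 2 and 3 against 9.55, 6.44 and 9.56 in NC 1, 2 and 3. For Krt19, KD 1 and 2 lay above the controls and KD 3 below 2 of them, and its limma adjusted p was 0.0915, and the list summed to 12.2 to 33.6 RPKM in KD and 10.8 to 15.1 in controls. The part of Krt19-positive cells in the Cd24a values was not tested.

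The 5 genes whose centred log2(RPKM + 1) values over the 6 libraries lay closest to those of Cd24a were Ptgs2, Marcksl1, Plaur, Ngfrap1 and Tm4sf1, at Euclidean distances of 0.569 to 0.681. Ptgs2, which encodes the inducible cyclooxygenase COX-2, averaged 7.12 ± 1.79 RPKM in KD and 1.49 ± 0.305 in controls. Plaur, the urokinase receptor and like CD24 a GPI-anchored protein, averaged 5.48 ± 1.55 and 1.10 ± 0.281 RPKM. In all 5 the groups did not overlap, and ratios of KD to control ranged from 3.19 to 5.001, below that of Cd24a. They were picked for their likeness to Cd24a, so these values are a description too.

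Of the other 9 markers, 7 were tested, and 1 of 7 was called, against the background of 24.0%. The groups did not overlap for 2 of 7, Pdgfra and Zfp423, against 44.8% of all genes. The median log2 fold change of the 7 was -0.06. Zfp423 passed the filter only through its control libraries, so that a difference was built into its place among the 7.

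**Figure D2:**
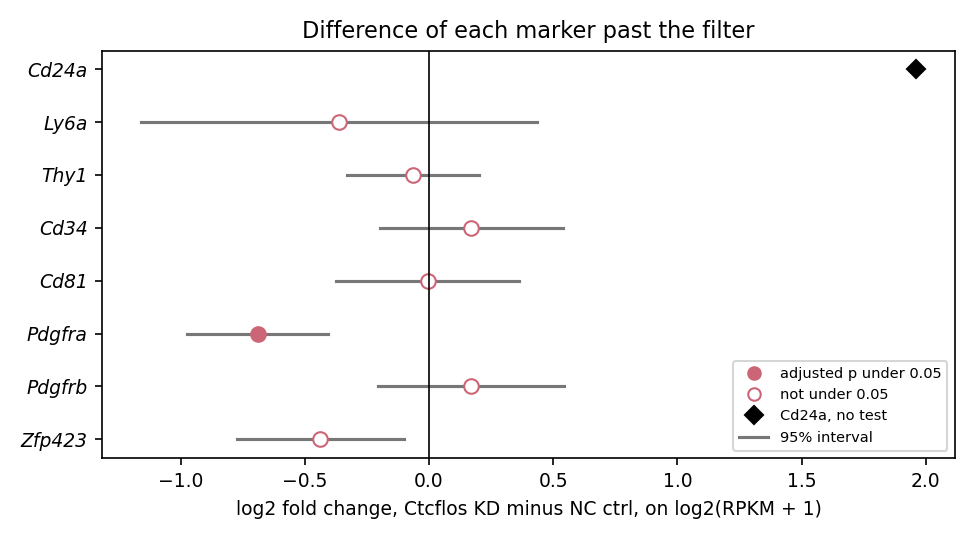
Log2 fold change (Ctcflos KD minus NC ctrl, on log2(RPKM + 1)) of the 8 markers that passed the filter, with 95% intervals from limma; filled points have an adjusted p under 0.05, and Cd24a is drawn with no interval because it was selected on this difference. The interval of Pdgfra, -0.97 to -0.41, lies below 0, as does that of Zfp423, -0.77 to -0.10, whose adjusted p was 0.0620.

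Pdgfra encodes the α receptor for platelet-derived growth factors and is the usual surface marker of adipose progenitors and fibroblasts. It was at 12.2, 13.1 and 14.02 RPKM in KD 1, 2 and 3 and at 21.0, 19.7 and 24.7 RPKM in NC 1, 2 and 3. All KD libraries lay below all control libraries. The KD mean was 60.1% of the control mean, and the log2 fold change was -0.69 ± 0.12 SE (limma adjusted p = 0.0104). The reads were ample, with 8427 to 9581 on a RefSeq transcript in KD and 15092 to 16397 in controls. All 9 accessions were lower in KD without overlap at ratios of 0.550 to 0.610, but overlapping accessions share reads and are not independent. The limma adjusted p was 0.0540 without NC 1 and 0.0580 without NC 3, at log2 fold changes of -0.71 and -0.60. The gene lies at chr5:75152292-75198215 on the forward strand, where the antisense genes Gm42802 and Gm42803 overlap it. The counting is not stated to use strand, and reads of these genes and Pdgfra cannot be told apart.

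Pdgfrb encodes the β receptor, which is typical of pericytes and other mural cells and of perivascular progenitors. Its values were 13.9, 8.74 and 11.8 RPKM in KD 1, 2 and 3 and 9.60, 10.9 and 9.37 RPKM in NC 1, 2 and 3. The KD libraries lay on both sides of the controls. The log2 fold change was 0.17 with an interval from -0.20 to 0.54 (limma adjusted p = 0.466), which leaves room for changes in either direction. Of the 8 mural markers, 2 were tested and 1 was called, against 24.0% of all genes. Mcam was called lower at 1.202, 1.4999 and 2.01 RPKM in KD against 2.57, 3.02 and 2.70 in controls (log2 fold change -0.56, limma adjusted p = 0.0198). Acta2 was not called (limma adjusted p = 0.212). Below the filter, Rgs5 (means of 0.166 RPKM in KD and 0.110 in controls) and Notch3 (0.753 and 0.505) were higher in KD on average. Cspg4, Myh11, Kcnj8 and Abcc9 were lower on average. The list summed to 21.9 to 52.2 RPKM in KD and 38.0 to 89.3 in controls, most of it Acta2, the smooth muscle actin, and 3 of the 8 markers, among them the pericyte gene Rgs5, were below 1 RPKM in every library. The part of mural cells in the Pdgfrb values was not tested.

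The list of ligands and partners of the PDGF receptors held 16 genes, of which 14 were tested. Of these, 2 were called higher, 3 lower and 9 were not called, with a median log2 fold change of -0.17 beside 0.03 for all genes. The share called was 35.7%, against 24.0% of all genes. The groups did not overlap for 7 of the 14, against 44.8% of all genes. Pdgfa, a ligand of the α receptor, was higher at 1.65, 1.31 and 1.32 RPKM against 0.733, 0.762 and 0.834 in controls (log2 fold change 0.45, limma adjusted p = 0.0167). It passed the filter only through its KD libraries and was not called without a filter (limma adjusted p = 0.0716). Grb2, the adaptor that links the receptors to Ras, was higher at 10.7, 10.7 and 6.73 RPKM against 6.26, 5.39 and 6.17 (0.56, limma adjusted p = 0.0489). Pdgfa and Grb2 were higher in every KD library than in any control library. Pik3r1, the regulatory subunit of phosphoinositide 3-kinase, was lower at 14.9, 14.6 and 19.5 RPKM against 29.2, 26.2 and 29.4 (-0.76, limma adjusted p = 0.0108). Pdgfd, a ligand that acts mainly through the β receptor, was lower at 1.11, 1.13 and 1.03 RPKM against 2.99, 1.68 and 2.52 (-0.68, limma adjusted p = 0.0168). These groups did not overlap either. The count of 5 called fell to 3 without KD 1, 2 without KD 2, 3 without NC 2, and 0 without NC 1 or without NC 3.

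Zfp423 encodes the zinc finger regulator of preadipocyte commitment. It was at 1.03, 0.497 and 1.07 RPKM in KD 1, 2 and 3 and at 1.69, 1.24 and 1.60 RPKM in NC 1, 2 and 3. All KD libraries lay below all control libraries. The KD mean was 57.4% of the control mean, but the log2 fold change of -0.44 ± 0.15 SE missed the threshold (limma adjusted p = 0.0620). The KD mean, 0.866 RPKM, is below 1, so that the gene passed the filter only through its controls, and without a filter its limma adjusted p was 0.273. The call changed with the setting: with RefSeq accessions alone it was -0.57 (limma adjusted p = 0.0200), with the highest accession -0.60 (0.0240), with scaling by the median of ratios -0.47 (0.0290), and without KD 3 -0.52 (0.0300).

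The 4 accessions of Zfp423 differed in their ratios of KD to control. On the RefSeq transcript of 4907 bases, 459, 229 and 361 reads were counted in KD 1, 2 and 3 and 826, 672 and 637 in NC 1, 2 and 3, without overlap, and its ratio of RPKM was 0.516. A GenBank clone of 4229 bases had a ratio of 0.509. The Ensembl transcripts of 386 and 696 bases had ratios of 0.699 and 0.717 on 13 to 31 reads in KD and 26 to 44 in controls, with overlapping levels. As a share of the summed RPKM of all 4 accessions, the shorter of them made up 24.5% in KD and 20.2% in controls, a shift of 4.31 percentage points. The shares of all 4 accessions were separate between the groups, but they are parts of the same sum and not independent. Both Ensembl transcripts held 44, 26 and 34 reads in NC 1, 2 and 3. No test was made on the shares, and how often shares separate over all accessions was not counted.

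The gene spans 298 kb (chr8:87661810-87959595, reverse strand), and long genes as a class had lower values in KD. Of the genes tested, 81.0% had a span, and 922 of these were at least 100 kb long, with a median log2 fold change of -0.34 beside 0.05 for shorter genes. Of the long genes, 45.01% were called lower, and of the shorter genes 10.2%. The part of gene length in the values of Zfp423, and in those of the list genes named here and below, was not tested. Pdgfra spans 45.9 kb and is not among the genes of at least 100 kb.

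Of the factors that act with or on ZFP423, those called were lower in KD. Of 13 symbols on the list, which held Wisp2 also under its other name Ccn5, 12 were in the table. Of these, 10 were tested, with 0 higher, 4 lower and 6 not called. The share called was 40%, against 24.0% of all genes. The groups did not overlap for 8 of the 10, against 44.8% of all genes. Among the 8, Smad5, a BMP signal transducer (means of 8.74 RPKM in KD and 8.18 in controls), and Maml1, a Notch coactivator (4.64 and 3.44), had higher values in KD and were not called (limma adjusted p = 0.515 and 0.160). The median log2 fold change was -0.24. Ebf1, an early B cell factor of adipocyte differentiation, was at 2.96, 2.61 and 4.02 RPKM in KD and 6.79, 7.02 and 6.73 in controls (-0.92, limma adjusted p = 0.00593). Zfp521, the paralogue of Zfp423 that opposes adipogenesis, was at 0.738, 0.555 and 0.801 RPKM against 1.35, 1.58 and 1.35 (-0.52, limma adjusted p = 0.0124). It passed the filter only through its controls, and without a filter it was not called (limma adjusted p = 0.0674). Neither Ebf1 nor Zfp521 overlapped between the groups. Wisp2, a secreted protein that holds ZFP423 in the cytoplasm, was at 21.4, 24.6 and 15.7 RPKM against 26.2, 30.8 and 28.9 and was not called (limma adjusted p = 0.0753). The count of 4 fell to 2 without KD 1 or without KD 2 and to 1 without NC 1, NC 2 or NC 3.

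Ly6a encodes Sca-1, a GPI-anchored protein of mesenchymal and haematopoietic progenitors. It lies at chr15:74994877-74998031 on the reverse strand and was by far the most abundant marker, at 317, 374 and 152 RPKM in KD 1, 2 and 3 and 382, 243 and 413 RPKM in NC 1, 2 and 3. The groups overlapped broadly, with KD 3 and NC 2 each the low library of its group. The log2 fold change was -0.36 with an interval from -1.16 to 0.44 (limma adjusted p = 0.466), so that changes beyond 2-fold in the direction of a decrease lie within it. Without KD 3 the estimate was 0.0309. The spread was that of the whole gene: its 3 accessions had ratios of KD to control from 0.811 to 0.813.

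KD 3 and NC 2 were low for further genes of the Ly6 cluster. Ly6e was at 218, 239 and 97.7 RPKM in KD 1, 2 and 3 and 170, 105 and 181 in NC 1, 2 and 3, and Ly6c1 at 40.9, 47.3 and 11.0 against 36.3, 20.4 and 41.3. Neither differed between the groups beyond this spread (limma adjusted p = 0.670 and 0.838). Ly6c1 has the same bases as Ly6a at 96.6% of 263 aligned positions, and reads of the pair may be shared. The same libraries were the high ones of their groups for Lyz2, the macrophage lysozyme, at 1.24, 1.70 and 12.8 RPKM in KD and 7.41, 24.5 and 6.90 in controls, and for Acta2, at 17.2, 22.8 and 48.2 RPKM against 31.6, 83.6 and 38.8. The 7 macrophage markers in the table summed to 7.21 to 16.8 RPKM in KD and 9.13 to 28.5 in controls. Ptprc and Itgam lay below 0.1 RPKM throughout. Of the list, 2 were tested and 1 was called, against 24.0% of all genes. Cd68, a lysosomal protein, was called higher (log2 fold change 1.05, limma adjusted p = 0.0230), and Lyz2 was not called (limma adjusted p = 0.167). Cd68 was at 4.12, 3.44 and 2.16 RPKM in KD and 0.657, 1.92 and 0.664 in controls, and Csf1r, the receptor of macrophage colony-stimulating factor, at 1.31, 1.48 and 1.10 against 0.269, 0.833 and 0.438. For both, NC 2 was again the high control library, but KD 3 was the lowest KD library. Csf1r was below the filter and was not called without it (limma adjusted p = 0.151). Means of Cd14 were 0.591 RPKM in KD and 0.904 in controls, those of Mrc1 0.0307 and 0.120, and those of Ptprc 0.00199 and 0.0327. Like that of Lyz2, these means were lower in KD. Those of Itgam were 0.0200 and 0.0177. The part of other cells in the Ly6a values was not tested.

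**Figure D3:**
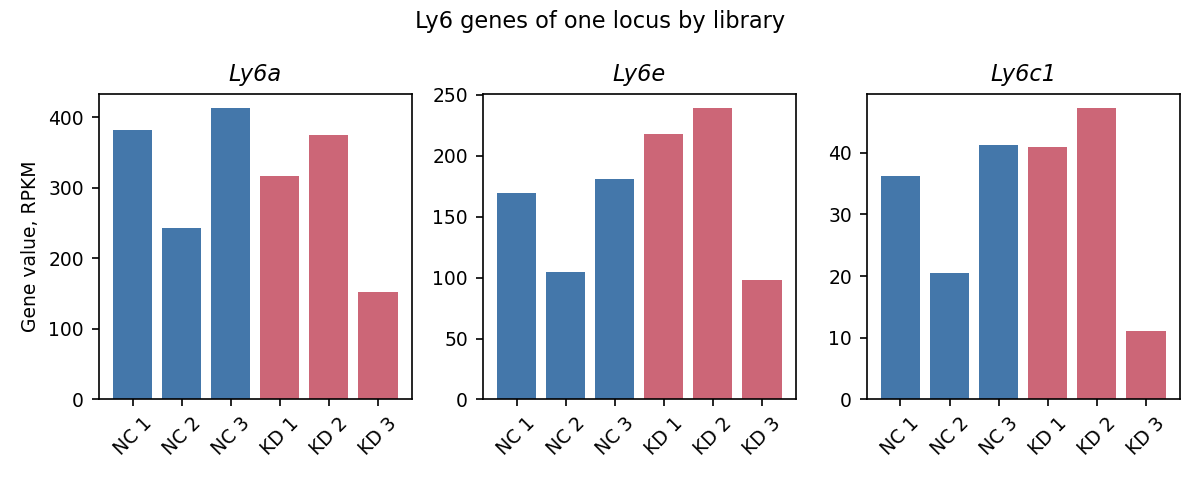
Gene values in RPKM of Ly6a, Ly6e and Ly6c1 in each library, controls in blue and KD in red, each panel with its own axis from 0. In all 3 panels, KD 3 is the lowest KD library and NC 2 the lowest control library, for Ly6a 152 and 243 RPKM.

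Across the Ly6 family and other GPI-anchored relatives, 7 of 15 genes were tested, of which 2 were higher, 1 was lower and 4 were not called, with a median log2 fold change of 0.22. The share called was 42.9%, against 24.0% of all genes, and the groups did not overlap for 3 of the 7, against 44.8%. Plaur was higher at 6.49, 6.26 and 3.70 RPKM against 0.843, 1.40 and 1.05 (log2 fold change 1.61, limma adjusted p = 0.00373). Ly6d, a member better known from lymphoid progenitors, was higher at 2.74, 4.26 and 2.88 RPKM against 1.69, 1.88 and 1.31 (0.70, limma adjusted p = 0.0175). Lypd1 was lower at 0.764, 0.899 and 1.66 RPKM against 2.88, 3.59 and 2.99 (-0.999, limma adjusted p = 0.00799). Each of these was without overlap, and the count was 2 without NC 1 or without NC 3.

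Thy1 encodes CD90, a GPI-anchored protein of fibroblasts and mesenchymal stromal cells. It was at 6.60, 6.91 and 5.89 RPKM in KD 1, 2 and 3 and 5.96, 7.59 and 6.90 RPKM in NC 1, 2 and 3. The groups covered nearly the same range. The log2 fold change was -0.06 with an interval from -0.33 to 0.20 (limma adjusted p = 0.714). Its RefSeq transcript held 1189 to 1755 reads in KD and 1516 to 2096 in controls. The gene lies at chr9:44043384-44048579 on the forward strand.

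Cd34 encodes a sialomucin of progenitor and endothelial cells. Its values were 1.86, 2.15 and 1.08 RPKM in KD 1, 2 and 3 and 1.503, 1.12 and 1.48 RPKM in NC 1, 2 and 3. KD 1 and 2 lay above the controls and KD 3 below them. The log2 fold change was 0.17 with an interval from -0.20 to 0.54 (limma adjusted p = 0.457), and without KD 3 it was 0.35 (limma adjusted p = 0.0400). Of the 8 endothelial markers, 7 stayed below 1 RPKM in every library, among them Pecam1 and Cdh5, and the list summed to 2.51 to 3.26 RPKM in KD and 3.43 to 3.84 in controls. Cd34 lies at chr1:194938819-194961279 on the forward strand and overlaps the antisense gene Gm16897, from which its reads cannot be told apart without strand. The part of endothelial cells in the Cd34 values was not tested.

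Cd81 encodes a tetraspanin that has been used to find beige adipocyte progenitors. It lies at chr7:143052739-143067934 on the forward strand, overlapped by the gene R74862. Its level was at 23.9, 24.6 and 17.1 RPKM in KD 1, 2 and 3 and 21.6, 19.9 and 23.8 RPKM in NC 1, 2 and 3. KD 1 and 2 were just above the controls and KD 3 was below them. The log2 fold change was -0.0059 with an interval from -0.37 to 0.36 (limma adjusted p = 0.983), and its sign turned with the setting. Of 25 tetraspanins and partners of CD81, 17 were tested, of which 1 was higher, 4 were lower and 12 were not called, with a median log2 fold change of -0.17. The share called was 29.4%, against 24.0% of all genes, and the groups did not overlap for 10 of the 17, against 44.8%. Tspan7 was higher at 2.31, 2.47 and 2.72 RPKM against 1.86, 1.70 and 1.60 (0.36, limma adjusted p = 0.0268). Tspan12, a partner of Frizzled 4 signalling, was lower at 12.6, 13.7 and 16.2 RPKM against 35.0, 17.7 and 26.6 (-0.81, limma adjusted p = 0.0373). Tspan14, a partner of the sheddase ADAM10, was lower at 4.92, 4.95 and 6.61 RPKM against 8.68, 7.99 and 9.66 (-0.60, limma adjusted p = 0.0184). None of these overlapped between the groups. The count of 5 was 10 without KD 3, 2 without KD 1, 3 without NC 2 and 0 without KD 2, NC 1 or NC 3.

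Dpp4, the surface peptidase of interstitial progenitors, was barely detected. It lies at chr2:62330073-62412231 on the reverse strand and overlaps Gm13561. Its value did not exceed 0.0192 RPKM in any library, and its RefSeq transcript of 5268 bases held 9, 6 and 4 reads in KD 1, 2 and 3 and 6, 7 and 9 in NC 1, 2 and 3. A difference was not detectable at this depth. Of the 9 peptidases and partners related to DPP4, 8 were tested, with 0 higher, 3 lower and 5 not called, and a median log2 fold change of -0.17. The share called was 37.5%, against 24.0% of all genes, and the groups did not overlap for 5 of the 8, against 44.8%. Dpp3, a cytosolic dipeptidyl peptidase, was at 1.33, 1.18 and 1.57 RPKM in KD and 2.95, 2.57 and 3.05 in controls (log2 fold change -0.71, limma adjusted p = 0.00611). Prep, the prolyl endopeptidase, was at 3.24, 2.85 and 3.11 RPKM against 4.21, 4.01 and 4.16 (-0.33, limma adjusted p = 0.0307). The groups did not overlap for either gene. The third, Prcp, a lysosomal carboxypeptidase, averaged 0.942 RPKM in KD and 1.43 in controls (-0.32, limma adjusted p = 0.0359), passed the filter only through its controls and was not called without a filter (limma adjusted p = 0.0840). The count of 3 fell to 1 without KD 1, KD 2, NC 1, NC 2 or NC 3, and it was 4 without KD 3.

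Dlk1, the inhibitor of preadipocyte differentiation that is cut from the cell surface, was low as well. It lies at chr12:109452823-109463336 on the forward strand. Its level was at 0.365, 0.288 and 0.158 RPKM in KD 1, 2 and 3 and 0.166, 0.153 and 0.277 RPKM in NC 1, 2 and 3. The groups overlapped, with KD 3 below NC 1 and NC 3. In the fit without a filter, in which 0.584% of all symbols were called, the log2 fold change was 0.08 (limma adjusted p = 0.756), and the RefSeq transcript of 4339 bases held 28 to 87 reads in KD and 40 to 54 in controls. Of 13 genes of Notch signalling and of DLK1 shedding and relay, 4 were tested, with a median log2 fold change of 0.17. Of the 4, 0 were called by limma, against 24.0% of all genes. The groups did not overlap for 1 of the 4, against 44.8% of all genes, and the same gene had an unadjusted limma p under 0.05. This was Notch2, named after its values were seen, at 4.20, 1.76 and 2.27 RPKM in KD and 1.504, 1.57 and 1.26 in controls (limma adjusted p = 0.0875). Sox9, which relays the effect of DLK1, was at 1.56, 0.644 and 0.719 RPKM in KD and 0.517, 0.360 and 0.451 in controls. It was below the filter, was not called without it (limma adjusted p = 0.387), and was chosen after its values were seen.

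**Figure D4:**
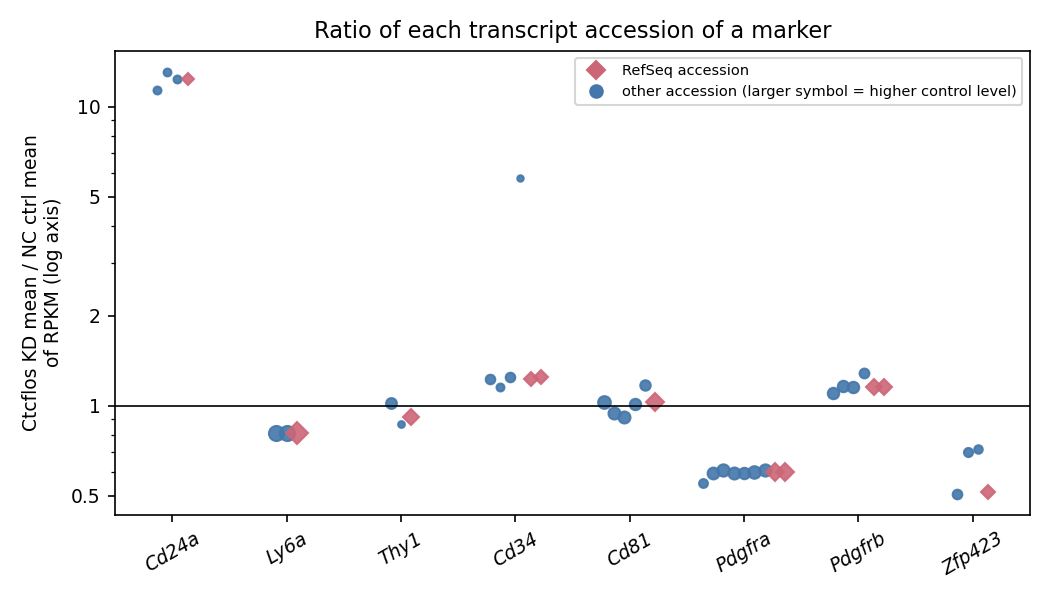
Ratio of the Ctcflos KD mean to the NC ctrl mean of RPKM for each transcript accession of the 8 markers past the filter, on a log axis, with RefSeq accessions as diamonds and larger symbols for higher control levels. Accessions of Cd24a lie between 11.4 and 13.1 and those of Pdgfra between 0.550 and 0.610, while those of Zfp423 fall into a pair near 0.51 and a pair near 0.71.

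Other markers of adipose stem cells, committed preadipocytes and adipogenesis-regulating stromal cells split evenly. Of 35 genes, 18 were tested, of which 3 were higher, 3 were lower and 12 were not called, and the median log2 fold change was -0.0049. The share called was 33.3%, against 24.0% of all genes, and the groups did not overlap for 8 of the 18, against 44.8%. Klf4, an early adipogenic and stemness factor, was higher at 9.99, 5.65 and 2.11 RPKM in KD 1, 2 and 3 against 1.46, 1.40 and 1.36 in NC 1, 2 and 3 (1.34, limma adjusted p = 0.0384). Cd44, the hyaluronan receptor of stromal cells, was higher at 9.75, 7.87 and 8.23 RPKM against 4.92, 7.38 and 5.09 (0.51, limma adjusted p = 0.0465). The KD libraries of Klf4 differed from each other more than those of Cd44 did, and in neither gene did the groups overlap. Fbn1, the matrix protein fibrillin 1, was lower at 10.6, 6.65 and 9.05 RPKM against 18.1, 18.8 and 16.9 (-0.97, limma adjusted p = 0.00834). Ebf2, which marks committed brown and beige preadipocytes, was lower at 3.45, 2.99 and 3.63 RPKM against 7.75, 5.81 and 6.84 (-0.84, limma adjusted p = 0.00626). Both were lower in all KD libraries. The third gene called lower, Zfp521, is also counted among the Zfp423 partners. It passed the filter only through its controls and was not called without a filter (limma adjusted p = 0.0674). The count of 6 fell to 3 without KD 1, KD 2 or NC 2 and to 2 without NC 1 or NC 3.

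Further markers of DPP4-type interstitial progenitors, chosen as examples after their values were seen, lay at different levels. Anxa3 was at 5.62, 4.999 and 7.30 RPKM in KD and 4.97, 7.17 and 3.65 in controls, and Sema3c at 5.27, 4.995 and 4.94 against 4.69, 4.20 and 4.68. Neither was called (limma adjusted p = 0.553 and 0.300). Pi16, Bmp7, Cd55 and Wnt2 were below 1 RPKM in every library. Pi16 was at 0.0528 to 0.226 RPKM in KD and 0.0825 to 0.146 in controls, and Bmp7 was listed at 0. Cd55 was at 0.275, 0.331 and 0.361 RPKM in KD and 0.934, 0.685 and 0.915 in controls, and Wnt2 at 0.244, 0.301 and 0.246 against 0.0394, 0.0541 and 0.0616. Cd55 and Wnt2 were separate between the groups in opposite directions. They are below the filter, and in the fit without it Wnt2 was called (limma adjusted p = 0.0498) and Cd55 was not (limma adjusted p = 0.0673).

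**Figure D5:**
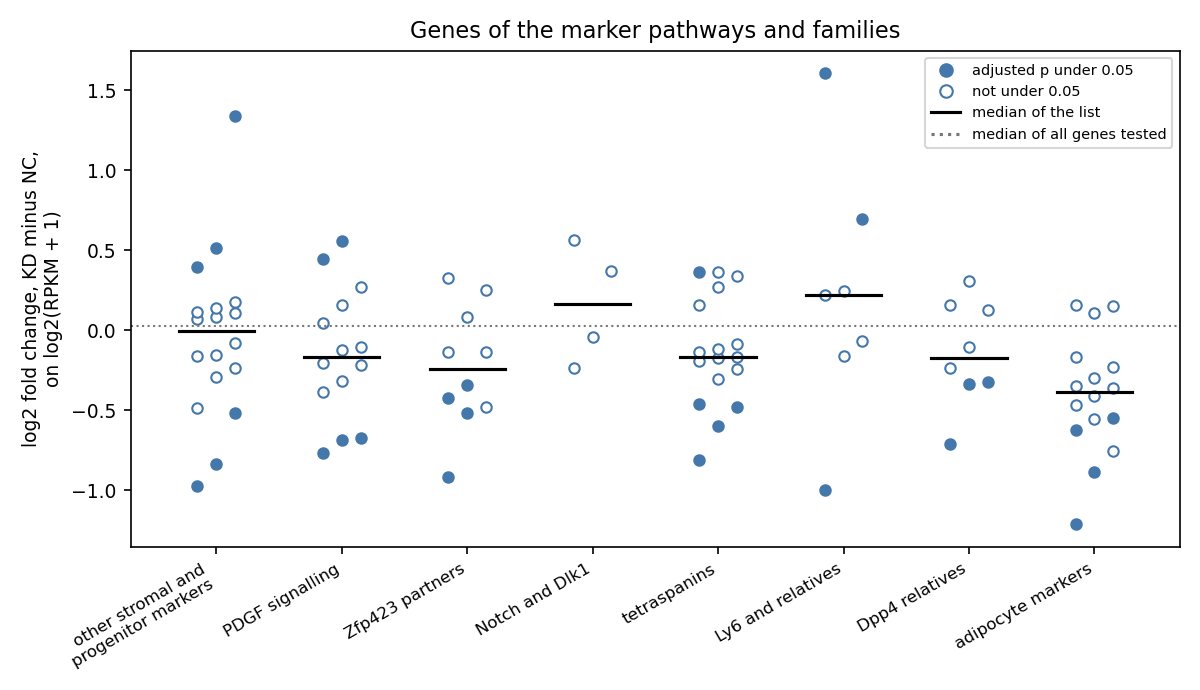
Log2 fold change (KD minus NC, on log2(RPKM + 1)) of each gene tested in 8 lists of pathways, families and markers, with filled points for an adjusted p under 0.05, black bars for list medians and a dotted line for the median of all genes tested, 0.03. The median of the adipocyte list is the lowest, at -0.38.

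Adipocyte markers ranged from leptin (Lep), at most 0.0617 RPKM in any library, to Fabp4, the fatty acid carrier. The 17 of them summed to 5084 to 6621 RPKM in KD and 6822 to 7648 in controls, most of it Fabp4, and without overlap. Of the 16 tested, 0 were higher, 4 were lower and 12 were not called, and the median log2 fold change was -0.38. The share called, 25%, was near the 24.0% of all genes. The groups did not overlap for 9 of the 16, against 44.8% of all genes. Ucp1, the uncoupling protein of thermogenic fat, was at 23.6, 26.1 and 12.4 RPKM in KD and 67.0, 27.1 and 57.3 in controls (-1.21, limma adjusted p = 0.0481). Cebpa, a master regulator of adipogenesis, was at 32.8, 31.8 and 63.9 RPKM in KD and 78.2, 75.4 and 74.1 in controls (-0.89, limma adjusted p = 0.0381). The groups did not overlap for either gene, although NC 2 lay close to the KD libraries for Ucp1. The count of 4 was 7 without KD 3 and 0 without KD 1, KD 2, NC 1 or NC 3. Schwann cell markers were at the margin of detection, with 3 of 4 below 1 RPKM and sums of 0.934 to 1.29 RPKM in KD and 1.66 to 2.22 in controls. S100b, which adipocytes express too, was called lower (log2 fold change -0.55, limma adjusted p = 0.0184), passed the filter only through its controls and was not called without a filter (limma adjusted p = 0.117). The mesothelial marker Lrrn4 was called lower too (-0.42, limma adjusted p = 0.0339).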

How the data were processed

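The authors deposited RPKM values for 6 libraries in 1 table of 168326 lines, each a RefSeq, Ensembl or GenBank transcript accession with its symbol. Libraries were made from total RNA with a stranded kit, sequenced in 150 bp paired-end reads from 1 shared lane, and each has its own column. For splice analysis the study names STAR, GRCm38 and Gencode vM21, and how the table was made is not given in the sources used here. Overlapping accessions share reads.

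After 305 repeated lines were removed, a gene value was the mean RPKM over the accessions of a symbol. Genes with a mean of at least 1 were tested with limma 3.58.1 (trend) in R 4.3.3 on log2(RPKM + 1), with Benjamini-Hochberg adjustment over all 11701 genes and a threshold of 0.05. Genes below were taken from a fit without the filter. Fold changes on this scale understate those of low genes. Depth was recovered from RPKM steps, since 90.6 to 91.1% of low values of Ensembl transcripts were whole reads within 0.05 of a read. Reads of an accession were given where all 6 values were whole at 1 length. Whether mates of a pair count separately is not given in the sources used here. Copies were sought with BLAST 2.17.0. The method was tested on simulated data.

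The members and lists were chosen with earlier results of these data known. Besides the 10 markers, Ctcflos, the markers of other cells and the 5 genes nearest to Cd24a, the text names up to 2 called genes with the largest positive and 2 with the largest negative fold change per list, and others as stated or as examples of a list. Alternatives were a pseudocount of 0.1, no filter, median-of-ratios scaling, a replicate block, RefSeq accessions alone, the highest accession, and leaving out each library. One marker of the B cell list is not reported here.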

Additional observations from a re-analysis of the deposited data

How the results depend on the processing

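The 12 alternatives left Pdgfrb, with an adjusted p not under 0.05, and the direction of Pdgfra, Zfp423, Cd34 and Cd24a as they were. Pdgfra missed the threshold without a filter (-0.69, limma adjusted p = 0.0660). Zfp423 passed it with the replicate block (-0.44, limma adjusted p = 0.0470). Small estimates turned sign: Ly6a gave 0.0309 without KD 3 (-0.618 to 0.0309 over libraries left out), Thy1 0.00785 without NC 2 (-0.144 to 0.00785), and Cd81 0.0346 with RefSeq accessions alone, 0.0348 with the highest accession, 0.156 without KD 3 and 0.0572 without NC 3 (-0.097 to 0.156). The count of all genes called, 2803, was 304 without a filter, where 52089 symbols were tested, and 369 to 4810 when a library was left out, lowest without NC 3 and highest without KD 3. With the replicate number as a block it was 1671, of which 1647 were among the 2803. After the group means were taken out, KD and NC libraries with the same number correlated at 0.287, -0.288 and -0.418. The numbers therefore do not pair the libraries, and 2 of the 6 correlated best with their own number. KD 1 correlated best with NC 1 (0.287), KD 2 with NC 3 (0.504) and KD 3 with NC 2 (0.419). A pairing across numbers was not modelled. Of the 9 markers beside Cd24a, 1 was called, 0 without a filter and 2 with median-of-ratios scaling, the replicate block, RefSeq accessions alone or the highest accession, and 0 to 3 when a library was left out. Without a filter, 1 gene was called among the other stromal markers and 0 in every other list. With the replicate block the counts were 3 for PDGF signalling, 2 for Zfp423 partners, 2 for tetraspanins, 1 for Dpp4 relatives and 1 for adipocyte markers. In the Notch and Dlk1 list, 1 gene was called with scaling by the median of ratios and 1 with the highest accession. Leaving out a library gave 2 to 7 for other stromal markers, 0 to 5 for PDGF signalling, 1 to 5 for Zfp423 partners, 0 to 0 for Notch and Dlk1, 0 to 10 for tetraspanins, 2 to 3 for Ly6 and relatives, 1 to 4 for Dpp4 relatives and 0 to 7 for adipocyte markers. The largest shift of an accession share among the 8 markers past the filter, 4.31 percentage points, was 0.318 with RefSeq accessions alone, since Zfp423 has 1 of these. More symbols were tested without a filter, and fewer libraries were used when one was left out. Why the counts differed between settings was not tested. Dpp4 and Dlk1, below the filter, have few reads, and 3 libraries a group limit every comparison.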

Other observations

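Ly6a lies on chromosome 15 (GRCm38, chr15:74994877-74998031, reverse strand) among 9 tested genes within 500 kb on either side. KD 3 was the lowest KD library and NC 2 the lowest control library for 5 of these 9 genes, Jrk, Them6, Ly6e, Ly6a and Ly6c1, and for 27.7% of all 11701 genes tested. This was chosen after the values were seen. Of the neighbours, Lynx1, a modulator of nicotinic receptors, was called lower at 1.33, 1.37 and 1.37 RPKM in KD against 2.27, 2.03 and 2.58 in controls (log2 fold change -0.48, limma adjusted p = 0.0135), and Arc was at 14.7, 13.5 and 9.32 RPKM in KD and 7.56, 8.51 and 9.15 in controls (0.50, limma adjusted p = 0.0624).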
